A study of Mus musculus with 6 samples.

Results

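Connexins are the proteins of gap junctions, the channels through which neighbouring cells exchange ions and small metabolites. Connexin subunits assemble into a ring, called a connexon or hemichannel, in the membrane of 1 cell, and the connexons of 2 touching cells dock to make a complete channel. Connexins that share a connexon or face each other across a junction set what the channel lets through. In stratified epithelia such as the corneal epithelium, gap junctions couple cells within and between layers, and Cx43 is known for its place in the basal layer. The expression of 5 connexin genes was examined in the corneal epithelium of mice with an epithelial deletion of *Rela*: *Gja1* (Cx43), *Gjb2* (Cx26), *Gjb5* (Cx31.1), *Gjb6* (Cx30) and *Gjc1* (Cx45). They were taken by gene symbol and are 5 of the 14 connexin genes reported here and of the 17554 coding genes in the deposited table.

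The epithelium was taken from the corneas of control and mutant C57BL/6 mice, all 2 months old, as 3 samples per genotype. Its RNA was sequenced in bulk, so that 1 value covers all cells of a sample. The paper does not state how many mice went into each sequenced sample. The mutant mice were *Krt14-Cre; Rela* f/f, labelled Rela-/-, in which a recombinase under the keratin 14 promoter removes the floxed part of *Rela*, the gene of the RelA subunit of NF-κB. This promoter is also active in the limbal, conjunctival and meibomian gland epithelium and in other stratified epithelia, so the deletion was not limited to the cornea. The control mice carry the label WT, and whether they held floxed alleles or the Cre transgene is not given in the sources used here. The question was how the loss of RelA in keratin 14-expressing cells affected gene expression in the corneal epithelium.

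Expected counts, in which an ambiguous read is split between genes, summed to between 19492942 and 19733834 per sample, and the detection limit of 3 counts used here equalled 0.152 to 0.154 CPM. Only counting error enters this limit. *Rela* had an FPKM (a count scaled to transcript length and library size) of 36.5, 34.7 and 33.4 in controls, against 4.93, 5.53 and 5.72 in the mutant samples. Its log2 fold change was -2.75 (adjusted p = 5.5e-07 in the edgeR quasi-likelihood fit, adjusted by Benjamini-Hochberg), and each library's level of *Rela* matched its label. The first principal component of log2 CPM, with 65.7% of the variance, placed the control samples between -35.3 and -30.2 and the mutant samples between 27.3 and 41.8. Of the corneal epithelium markers, *Krt12* had an FPKM of at least 17005 in each sample. *Krt14*, whose promoter drives the recombinase, had an FPKM of 150 to 203 in controls, against 1474 to 2204 in mutants (log2 fold change 3.32, adjusted p = 1.1e-05 in the same edgeR test). Of 12667 genes with enough counts to be tested, 1678 (13.2%) had an adjusted p under 0.05, with 991 (7.82%) up and 687 (5.42%) down in the mutants. Since bulk RNA was measured, fewer cells of a type and less RNA per cell cannot be told apart. The p-values measure the spread between the samples of a genotype, which the paper describes as independent biological samples.

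*Gjb2* and *Gjb5* rose in the mutant epithelium, by 1.87-fold and 1.46-fold, and were the 2 of the 4 tested genes with an adjusted p under 0.05. The share of all genes tested that rose was 7.82%. *Gja1*, which had the highest mean FPKM of the 5 genes in both genotypes but overlapped with *Gjb2* in the mutants, lay higher in each mutant sample than in any control sample, but with an adjusted p of 0.101 in edgeR's quasi-likelihood test. *Gjb6* did not separate the genotypes, and *Gjc1* stayed near the limit of 3 counts and was not tested. The study's thresholds, a fold change at or above 2 and an adjusted p at or under 0.001, were applied to the edgeR fit. None of the 4 tested genes counted as differentially expressed by them, against 1.37% of all genes tested. The p-values of the study's own test were not used.

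**Figure D1:**
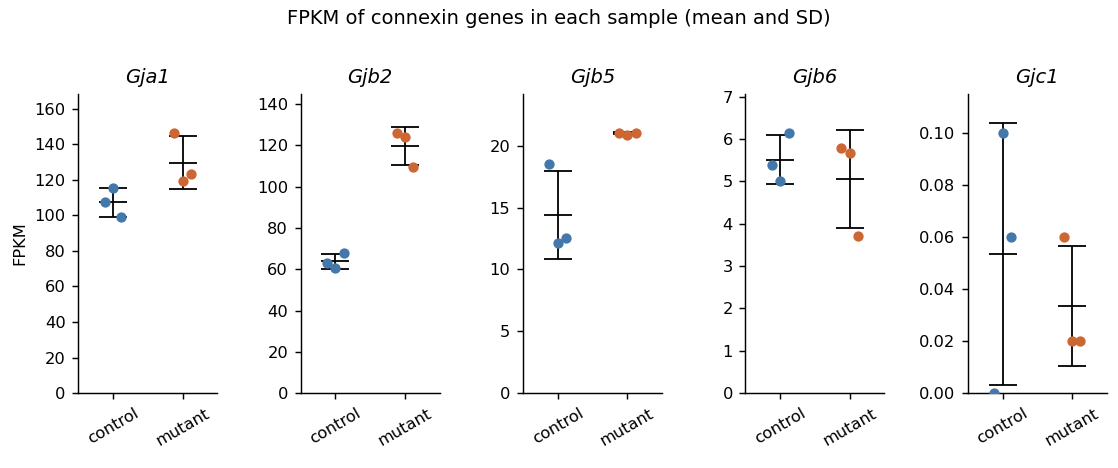
FPKM of the 5 connexin genes in the 3 control (blue) and 3 mutant (orange) samples, on linear axes that start at 0 and differ between genes, with 1 point per sample and the mean and SD as black bars. The *Gjb2* points lie at 60.8 to 67.8 in control and at 109 to 126 in mutant samples, and those of *Gjb6* overlap.

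*Gjb2* encodes Cx26, which is made in keratinocytes of many stratified epithelia and in the cochlea, and whose variants cause hearing loss and skin disease in people. The gene (14619) spans, in GRCm38 coordinates, chromosome 14 from 57098602 to 57104702 on the minus strand. Its FPKM was 62.8, 60.8 and 67.8 in controls, against 126, 124 and 109 in mutants. All mutant samples lay above all control samples, with mutant sample 3 the lowest of the mutant samples and control sample 3 the highest of the control samples. The mean rose from 63.8 ± 3.6 to 120 ± 9.2 (SD, n = 3 each). The log2 fold change was 0.91, with SE (standard error) 0.09 (95% interval 0.70 to 1.11, adjusted p = 2.7e-04 in the edgeR quasi-likelihood fit, adjusted by Benjamini-Hochberg), a 1.87-fold difference with an interval from 1.63 to 2.16. These values rested on 2849 to 3189 expected counts in controls, against 5194 to 5920 in mutants. With any 1 sample left out, the log2 fold change of *Gjb2* lay between 0.86 and 0.98 and the adjusted p was at most 0.0041.

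*Gjb5* encodes Cx31.1, a connexin known from the differentiated layers of stratified epithelia. The gene (14622) lies on chromosome 4 from 127354809 to 127358164 on the minus strand. Its FPKM was 18.5, 12.1 and 12.6 in controls, against 21.1, 20.9 and 21.0 in the mutant samples. The genotypes did not overlap, the mutant samples were nearly equal, and control sample 1 stood above the other control samples. The mean rose from 14.4 ± 3.5 to 21.0 ± 0.078 (SD, n = 3 each), with a log2 fold change of 0.54 and an SE of 0.14 (95% interval 0.22 to 0.86, adjusted p = 0.0349 from the same edgeR test). The call of *Gjb5* depended on single samples: the adjusted p was 0.131 without control sample 2, 0.126 without control sample 3, 0.0844 without mutant sample 2 and 0.0608 without mutant sample 3. Its log2 fold change stayed between 0.43 and 0.75 over these and the remaining samples left out in turn, and the highest value came without control sample 1.

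*Gja1* encodes Cx43, a widely expressed connexin that binds the scaffold protein ZO-1. The gene (14609) lies on chromosome 10 from 56377300 to 56390419 on the plus strand. Its FPKM was 107, 115 and 99.2 in controls, against 146, 119 and 123 in mutants. The genotypes did not overlap, though mutant sample 2 exceeded control sample 2 by less than the spread within either genotype. The mean FPKM was 107 ± 8.1 in control and 130 ± 14.8 in mutant samples (SD, n = 3 each). The log2 fold change of 0.27 (SE 0.097, 95% interval 0.05 to 0.49) had an unadjusted p of 0.0202 and an adjusted p of 0.101 in the edgeR quasi-likelihood fit, adjusted by Benjamini-Hochberg. At 6045 to 8908 expected counts per sample, counting error was small beside the spread between samples.

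*Gjb6* encodes Cx30, a partner of Cx26 in the cochlea and the skin. The gene (14623) lies on chromosome 14 from 57123301 to 57133611 on the minus strand. Its FPKM was 5.39, 5.0 and 6.15 in controls, against 5.78, 5.68 and 3.71 in the mutant samples. The genotypes overlapped, and mutant sample 3 was the lowest of the 6, and there the implied transcript length of *Gjb6* was 108% of the control mean. The log2 fold change was -0.12 (SE 0.16, 95% interval -0.48 to 0.24, adjusted p = 0.668 from the same edgeR test), so the interval of the fold change ran from 0.715 to 1.18. Without mutant sample 3, the log2 fold change of *Gjb6* was 0.032, with an adjusted p of 0.916.

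*Gjc1* encodes Cx45, known for its place in the conduction system of the heart and in smooth muscle. The gene (14615), on chromosome 11 from 102799472 to 102819686 on the minus strand, had expected counts of 0, 5.01 and 3.05 in controls, against 3.09, 1.14 and 1.08 in the mutant samples. Its FPKM was at most 0.10. These levels are near or under 3 counts, so no fold change is given, and a difference was not detectable at this depth. Fitted without the filter on low counts, its adjusted p was 0.751 in edgeR's quasi-likelihood test.

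**Figure D2:**
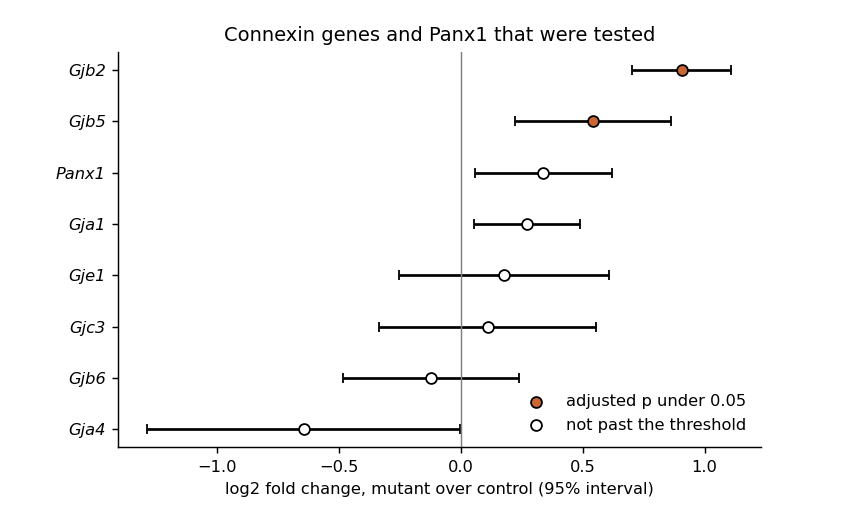
Log2 fold change, mutant over control, of the 7 tested connexin genes and of the pannexin gene *Panx1*, with 95% intervals from the edgeR fit; filled points have an adjusted p under 0.05. *Gjb2* stands highest at 0.91, *Gjb5* follows as a filled point, and the interval of *Gjb6* runs from -0.48 to 0.24.

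Of the 14 connexin genes, 7 were tested. Of these 7, *Gjb2* and *Gjb5* rose, 0 fell and 5 did not pass the test, against 7.82% and 5.42% of all genes tested that rose and fell. In the same fit at an unadjusted p under 0.05, 3 were higher and 1 was lower, as were 15.1% and 13% of all genes tested. DESeq2 gave 2 higher and 0 lower at an adjusted p under 0.05, against 8.44% and 5.94% of all genes tested. The median log2 fold change of the 7 genes was 0.18, and that of all genes tested was -0.0028. For *Gja1*, *Gjb2* and *Gjb5*, 3 of the 7, every mutant FPKM exceeded every control FPKM, as for 17.5% of all genes tested, and for 1, *Gja4*, every mutant FPKM was below, as for 15.2%. *Gjb2* was the 1 that passed without control sample 2 or 3 or mutant sample 2 or 3.

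*Gja4*, the gene of Cx37, which is known from blood vessels, had an FPKM of 0.94, 1.38 and 1.07 in controls, against 0.89, 0.76 and 0.51 in the mutant samples (log2 fold change -0.64, adjusted p = 0.175 in the edgeR fit). *Gje1* and *Gjc3* had adjusted p-values of 0.597 and 0.763 in the same test, and 5.52% and 2.07% of the 50-base windows of their transcripts also occur in other genes, so their counts are less certain.

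*Gjb1*, the gene of Cx32, which is known from liver and myelinating Schwann cells, did not pass the filter on low counts. It had 2, 4 and 1 expected counts in controls, against 16, 9 and 8 in mutants. The sums of 7 and 33 counts give a ratio of 4.71 (95% counting interval 2.05 to 12.6, which does not cover the spread between samples). Without the filter its adjusted p was 0.0425 in edgeR's quasi-likelihood test. The connexin genes *Gja3*, *Gja5*, *Gja6*, *Gjd3* and *Gjd4*, 5 in all, had at most 3 counts in each sample. *Gja10* and *Gjd2* were not analysed here.

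On the FPKM scale, which is per transcript length and so allows levels of different genes to be compared, the order of the 5 genes in the control samples was *Gja1*, *Gjb2*, *Gjb5*, *Gjb6* and *Gjc1*, with means of 107, 63.8, 14.4, 5.51 and 0.053. These neighbours were separate in all 3 samples. In the mutant samples the order of the means was the same, but *Gja1* and *Gjb2*, at 130 ± 14.8 and 120 ± 9.2, now overlapped. *Gjc1*, at a mean of 0.053 in control and 0.033 in mutant samples, overlapped with connexin genes at or near 0.

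The summed FPKM of the 14 connexin genes was 198, 198 and 190.4 in controls, against 304, 275 and 261 in mutants. The mean sum was 195 ± 4.4 in control and 280.1 ± 22.003 in mutant samples (SD, n = 3 each). All mutant sums lay above all control sums (exact two-sided permutation test, p = 0.1, the smallest p that 3 against 3 samples allow). Of the difference of 84.6 FPKM between the means, *Gjb2* made up 66.2%, *Gja1* 26.2% and *Gjb5* 7.79%. The difference in *Gjb6* was -0.46 FPKM, and the share of a difference carries no test of its own.

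*Gjb2* made up 32.7% ± 2.6 of this sum in controls, against 42.8% ± 2.1 in the mutant samples (SD, n = 3 each; exact permutation p = 0.1). *Gja1* made up 54.9% ± 3.1 and 46.2% ± 2.5, a lower share at a higher mean level, and the genotypes did not overlap (exact permutation p = 0.1). The share of *Gjb6* was 2.83% ± 0.37 in control and 1.80% ± 0.34 in mutant samples (exact permutation p = 0.1). This difference of -1.03 percentage points was -0.68 when the shares were taken from CPM. The share of *Gjb5* was 7.36% ± 1.7 and 7.52% ± 0.57, a difference within the spread between samples (exact permutation p = 0.9). Shares of a sum depend on each other, so a higher share of *Gjb2* lowers the total of the others by construction, though not each one.

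**Figure D3:**
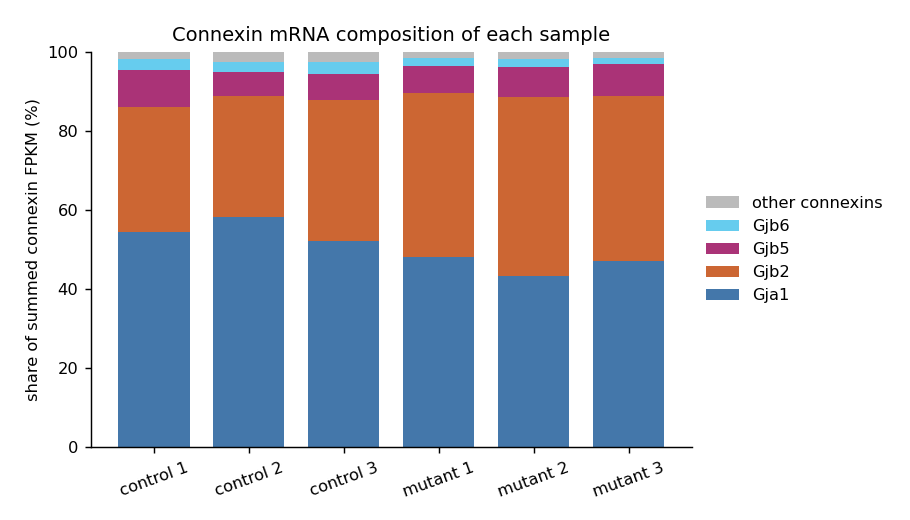
Share of the summed FPKM of the 14 connexin genes in each sample, in percent, taken by each gene, with the low ones joined as other connexins. In the 3 mutant samples the *Gjb2* section is larger than in the 3 control samples, with means of 42.8% and 32.7%.

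The FPKM ratio of *Gjb2* to *Gja1* was 0.585, 0.527 and 0.684 in controls, against 0.861, 1.04 and 0.888 in the mutant samples. In mutant sample 2 *Gjb2* exceeded *Gja1*, and the ratios of the genotypes did not overlap (exact permutation p = 0.1). The ratio of *Gjb2* to its neighbour *Gjb6* was 11.7, 12.2 and 11.03 in controls, against 21.8, 21.8 and 29.5 in the mutant samples. These genotypes were also separate (exact permutation p = 0.1), with the highest ratio in mutant sample 3, where *Gjb6* was lowest.

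Several connexin genes lie in clusters, and *Gjb2* and *Gjb6* are in one on chromosome 14. There, *Gja3*, *Gjb2* and *Gjb6* lie on the minus strand within 99.2 kb. *Gjb2* and *Gjb6* are 18.6 kb apart, with log2 fold changes of 0.91 and -0.12, and *Gja3* had at most 3 counts in each sample. The nearest tested genes outside, *Zmym2* and *Cryl1*, had log2 fold changes of 0.13 and -0.30 (adjusted p = 0.363 and 0.209 in edgeR's quasi-likelihood test). Of this cluster, *Gjb2* passed the test, *Gjb6* did not and *Gja3* was not tested. *Gja1* and *Gjc1* have no connexin neighbour in the table. The genes nearest to *Gja1*, *Msl3l2* at 260 kb and *Hsf2* at 1096 kb, gave log2 fold changes of 0.47 and 0.42 (adjusted p = 0.149 and 0.243 in the same test). *Adam11* and *Higd1b*, next to *Gjc1*, were not tested.

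**Figure D4:**
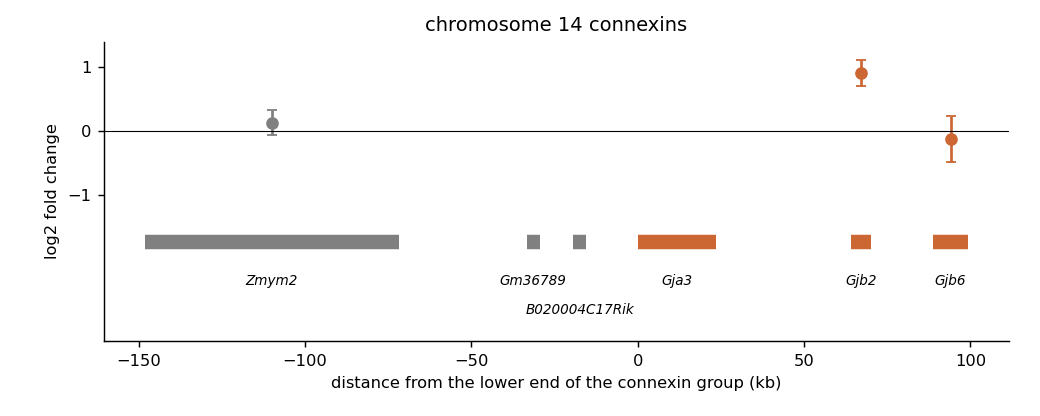
Log2 fold change with 95% intervals of the tested genes in and near the connexin cluster on chromosome 14, against distance in kb from its lower end, with bars for the gene bodies (orange, connexins; grey, others). *Gjb2* stands at 0.91 beside *Gjb6* at -0.12.

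Since RelA binds DNA at κB sites, the 250 bases before the annotated start of the connexin genes were read from RefSeq promoters of GRCm38.p6, in which 4 of the 5 genes and 10 of the 14 connexin genes have an entry. The entry of *Gjc1* was missing. The letters searched on both strands were the consensus κB motif, the AP-1 motif TGANTCA, the GC box GGGCGG and the TATA box TATAAA. Of 32851 promoters of the same length, 3.90% hold the κB letters, 6.75% the AP-1 letters, 32.7% the GC box and 12.4% the TATA box. The 4 sequences are printed 5′ to 3′ along the gene, with motif matches in capitals, to show *Gjb2* and *Gjb5*, which rose, beside *Gja1* and *Gjb6*, which did not pass the test. They lie at chr14:57104703-57104952 (*Gjb2*, minus strand), chr4:127358165-127358414 (*Gjb5*, minus strand), chr10:56377050-56377299 (*Gja1*, plus strand) and chr14:57133612-57133861 (*Gjb6*, minus strand).
Gjb2: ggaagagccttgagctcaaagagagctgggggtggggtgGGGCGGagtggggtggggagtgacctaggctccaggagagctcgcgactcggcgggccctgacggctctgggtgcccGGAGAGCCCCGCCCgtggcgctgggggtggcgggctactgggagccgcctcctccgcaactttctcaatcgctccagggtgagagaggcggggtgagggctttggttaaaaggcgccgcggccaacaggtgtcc
Gjb5: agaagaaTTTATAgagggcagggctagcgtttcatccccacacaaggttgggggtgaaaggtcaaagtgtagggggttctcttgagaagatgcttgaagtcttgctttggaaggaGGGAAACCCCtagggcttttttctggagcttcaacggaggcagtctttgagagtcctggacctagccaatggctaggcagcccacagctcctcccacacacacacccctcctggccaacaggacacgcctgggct
Gja1: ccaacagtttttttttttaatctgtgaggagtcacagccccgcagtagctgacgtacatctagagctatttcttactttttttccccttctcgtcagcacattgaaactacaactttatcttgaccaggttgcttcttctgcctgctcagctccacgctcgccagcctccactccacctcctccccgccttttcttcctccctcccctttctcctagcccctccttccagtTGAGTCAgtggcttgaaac
Gjb6: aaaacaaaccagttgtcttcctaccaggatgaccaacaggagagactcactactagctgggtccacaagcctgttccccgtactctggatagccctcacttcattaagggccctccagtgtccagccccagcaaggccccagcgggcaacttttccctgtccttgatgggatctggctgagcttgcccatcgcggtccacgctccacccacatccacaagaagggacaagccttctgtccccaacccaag

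In *Gjb2*, the first capitals are a GC box at 211 to 206 bases before the start. The second run holds the κB letters on the opposite strand, at 134 to 125 bases, which overlap a GC box at 126 to 121 bases. The promoter had a GC content of 69.2% and 18 CpG dinucleotides over these 250 bases, against medians of 52.4% and 6 over all promoters. In *Gjb5*, the TATA letters stand on the opposite strand at 243 to 238 bases and the κB letters, whose consensus is matched on both strands, at 135 to 126 bases. *Gjb2* and *Gjb5* are the 2 of the 10 connexin genes with an entry that hold the κB letters. *Gja3* and *Gjb1* have more than 1 entry each, so this count by gene is not comparable with the 3.90% of promoters. A link between these letters and the rise was not tested. *Gja1* has the AP-1 letters at 19 to 13 bases, and *Gjb6* has none of the 4 motifs in this window. A match of letters is a description of the sequence, and binding of RelA was not measured here.

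Gap junctions are shaped by proteins that hold, phosphorylate or remove connexins, and their genes were read from lists of textbook partners. Of 9 tested scaffold and adhesion genes, 0 rose and 1 fell, against 7.82% and 5.42% of all genes tested, with a median log2 fold change of 0.01. A count of 1 in 9 is near the share of all genes tested that were called, 13.2%. The gene that fell was *Nov* (CCN3), a secreted matricellular protein described as a partner of Cx43, with an FPKM of 3.0, 2.85 and 2.77 in controls, against 0.65, 0.75 and 1.18 in the mutant samples. Its log2 fold change was -1.74 (SE 0.21, adjusted p = 7.7e-04 in the edgeR quasi-likelihood fit, adjusted by Benjamini-Hochberg). *Tjp1*, the gene of ZO-1, and *Cdh1*, the gene of E-cadherin, gave log2 fold changes of 0.01 and 0.12 (adjusted p = 0.954 and 0.376). At an unadjusted p under 0.05, 1 gene of this list was higher and 2 were lower (15.1% and 13% of all genes), and DESeq2 gave 0 higher and 1 lower at an adjusted p under 0.05 (8.44% and 5.94% of all genes).

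Of 10 kinase genes whose products phosphorylate Cx43 or act on its pathway, 1 rose and 0 fell, with a median log2 fold change of 0.03. This count, too, is near the shares of all genes tested that rose and fell, 7.82% and 5.42%. At an unadjusted p under 0.05 the numbers of kinase genes were 2 and 1 (15.1% and 13% of all genes), and with DESeq2 1 and 0 (8.44% and 5.94% of all genes). The gene that rose was *Prkca*, the α isoform of protein kinase C, with an FPKM of 4.60, 4.30 and 4.07 in controls, against 6.66, 7.16 and 7.56 in the mutant samples. Its log2 fold change was 0.72 (SE 0.077, adjusted p = 4.0e-04 from the same edgeR test). *Src* gave -0.19 (adjusted p = 0.106). Of 8 genes of connexin trafficking and degradation, 0 rose and 0 fell in edgeR's test (7.82% and 5.42% of all genes), with a median of 0.01. None had an unadjusted p under 0.05 (15.1% higher and 13% lower over all genes). DESeq2 gave 0 as well (8.44% and 5.94% of all genes), as did limma on log2(FPKM + 1), which called 1533 of 12667 genes. Of the pannexin genes, which encode channels of similar membrane layout, *Panx1* was the one tested, with an FPKM of 6.28, 5.10 and 5.34 in controls, against 7.94, 6.64 and 6.58 in the mutant samples (log2 fold change 0.34, adjusted p = 0.110). *Panx2* had between 4 and 14 counts per sample and was not tested, and *Panx3* was not analysed here.

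The KEGG pathway annotation in the table assigns 84 genes to gap junctions, among them *Gja1*, growth factors and receptors, G proteins, cyclases, kinases and tubulins. Of the 56 tested, 15 (26.8%) had an adjusted p under 0.05, against 13.2% of all genes tested, with 7 higher and 8 lower and a median log2 fold change of 0.01. In the higher group, *Tubb6* had a log2 fold change of 2.04, *Adcy7*, an adenylate cyclase, 1.87, *Pdgfb*, a growth factor, 1.35, and *Tuba1c* 0.82 (adjusted p between 1.2e-04 and 0.00163 from edgeR's quasi-likelihood test). The lower group held *Egf*, the gene of epidermal growth factor, at -0.85, *Pdgfra*, a receptor of PDGF, at -0.78, *Tuba1a* at -0.56, *Tubb2a* at -0.52 and *Adcy6* at -0.52 (adjusted p between 0.00389 and 0.0156). The list thus held changes in both directions, among tubulins and adenylate cyclases too. Some of these genes had low levels: the FPKM of *Adcy7* was 0.15 to 0.18 in controls and 0.48 to 0.65 in mutants. That of *Pdgfb* was 0.44 to 1.23 and 2.29 to 2.68, and that of *Egf* 1.05 to 1.44 and 0.64 to 0.72. Tubulin genes are close paralogs, so the division of reads among them is uncertain.

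**Figure D5:**
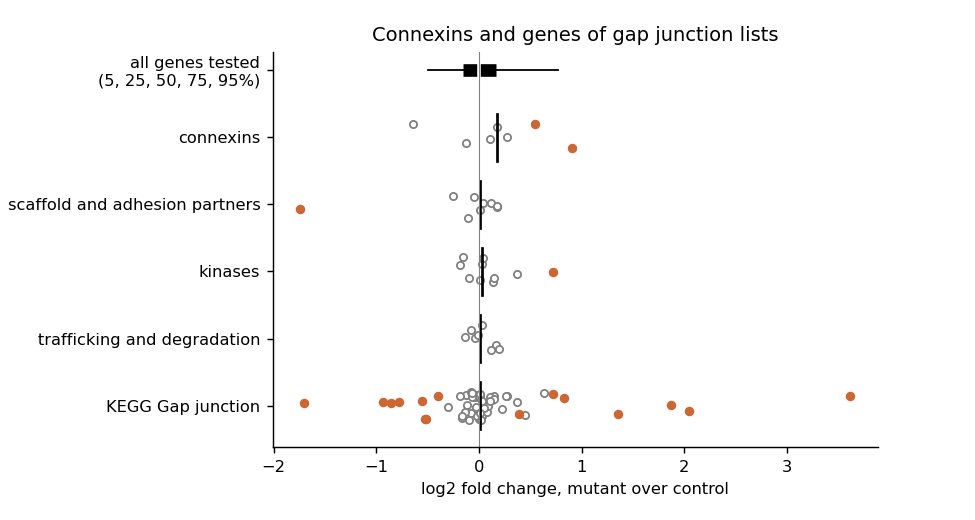
Log2 fold change, mutant over control, of every tested gene in the connexin list and in the lists of partners, kinases, trafficking genes and KEGG gap junction genes; filled points have an adjusted p under 0.05, black lines are list medians, and the top row gives quantiles of all genes tested. The medians lie at 0.18 for connexins and between 0.01 and 0.03 for the other lists.

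The genes whose profile over the 6 samples was most like that of each connexin gene were found by the root mean square difference of centred log2 CPM, over the 12666 other genes tested. For *Gjb2* they were *Chit1* (0.053), *Zc3h12a* (0.057) and *Fxyd3* (0.083), and 9 genes lay within 0.1. For *Gjb5* they were *Ell2* (0.050), *Sox7* (0.075) and *Wdr55* (0.075), with 7 genes within 0.1. For *Gja1* they were *Slc44a1* (0.033), *Atp13a3* (0.037) and *Usp25* (0.041), with 283 genes within 0.1. For *Gjb6* they were *Bik* (0.028), *Ccdc36* (0.046) and *Adat3* (0.056), with 51 genes within 0.1. Profiles were centred but not scaled, so the number within 0.1 depends on how much a gene varied and is not compared between genes. The distances are descriptions over 6 samples that include the difference between genotypes.

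Markers of other cell types were read beside these results. The summed FPKM of 6 corneal epithelium markers was 43660 to 47728 in controls, against 40506 to 43899 in mutants, with *Aldh3a1* lower by a log2 fold change of -0.25 (adjusted p = 0.0466) and *Krt14* higher. The sum of 6 keratocyte markers was 0.45 to 0.60 in controls, against 0.51 to 3.45 in the mutant samples, where *Dcn* was the 1 gene tested and rose by a log2 fold change of 4.17 (adjusted p = 0.00507 in edgeR's quasi-likelihood test), and *Kera* had at most 3 counts. Leukocyte markers summed to 17.5 to 22.1 and 22.6 to 26.1, nearly all *Cd68*, and vascular markers to 0.11 to 0.19 and 0.20 to 0.30, with *Cdh5*, *Kdr* and *Tek* at 3 counts or fewer. Conjunctival markers summed to 1365 to 1598 and 1077 to 1192, mostly *Krt13*, with *Muc5ac* at 3 counts or fewer. Of 5 tested, *Krt13* and *Krt8* were lower. *Krt4*, *Krt19* and *Krt18* did not pass, at log2 fold changes of -1.01, 0.06 and 1.42 (adjusted p = 0.0913, 0.835 and 0.0667 in edgeR's quasi-likelihood test). Corneal endothelium markers summed to 6.15 to 7.33 and 6.76 to 11.9, and epidermal markers to 6.15 to 6.99 and 5.21 to 6.44. Those of Schwann cells and melanocytes summed to 5.30 to 5.79 and 5.53 to 5.94. Of these 3 lists, 2 of 4, 2 of 6 and 4 of 6 genes were tested. None of them passed, against 13.2% of all genes tested. The part of these differences in the connexin values was not tested.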

How the data were processed

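Corneal epithelium of control and mutant mice was profiled by bulk RNA-seq, with 3 samples per genotype. Per the paper's methods, rRNA was depleted and single-end reads of 50 bases were sequenced on a BGISEQ-500 instrument, although the labels name a TruSeq kit. Reads were filtered with SOAPnuke and aligned with Bowtie2, version 2.2.5 per the labels. The authors deposited expected counts per gene from RSEM 1.2.12, neither normalized nor pooled, and between 34.9% and 36.0% of a sample's values above 0 carried decimals. FPKM values, which RSEM scales to transcript length and library total, were deposited by the authors for each sample as well. The labels list mm9, but the table carries GRCm38 coordinates, which are used here. Columns of the authors' own comparison, which hold log2 fold changes with p-values and q-values, and the group means were not used.

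Expected counts were rounded and tested with edgeR 4.0.16 in R 4.3.3 (TMM scaling, filterByExpr at 10 counts per gene and 15 in total, a quasi-likelihood fit on genotype alone). P-values were adjusted over all 12667 genes tested by Benjamini-Hochberg. Each standard error (SE) is the size of the log2 fold change divided by the root of its F statistic. Shares and ratios of FPKM were compared by exact permutation, two-sided, where p cannot go under 0.1. Of the 17554 genes, 17434 matched RefSeq by identifier, and 5916 of these had the same start and end there. Alternatives tried were a replicate block, each sample left out, shares over the 5 genes alone or from CPM, limma 3.58.1 on log2(FPKM + 1) or log2(FPKM + 0.1), DESeq2 1.42.0, scaling by the upper quartile, and either no filter or a filter of 10 counts in all samples. Named genes were the 5 connexins, the other connexins and the pannexins, *Rela*, up to 5 genes with the smallest adjusted p per direction in each list, the 3 nearest profiles and the neighbouring genes. *Tjp1*, *Cdh1* and *Src*, and *Zmym2*, were named after their values were seen. Results of some other connexin genes are not reported here, so counts, shares and sums over connexin genes cover the 14 that are. The genes and lists were chosen with earlier results of these data known. Of the 50-base windows of the transcripts, *Gjb2*, *Gjb5* and *Gjb6* share 0 with another gene, *Gja1* 0.115% and *Gjc1* 0.0396%. The edgeR, DESeq2 and limma fits were tested on simulated counts, with changes larger than those of the tested connexin genes. Shares, ratios, motif matches and profile distances were not tested in this way.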

Additional observations from a re-analysis of the deposited data

How the results depend on the processing

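*Gjb2* kept its direction and its call under all 13 alternatives, with log2 fold changes of 0.86 to 0.98 and adjusted p-values of at most 0.0041. *Gja1* stayed between 0.17 and 0.32 and did not pass the test under any, with the lowest adjusted p, 0.0506, from DESeq2. *Gjb5* lay between 0.43 and 0.75 with 1 sample left out and lost its call in 4 of the 13 alternatives, without control sample 2 (0.43), control sample 3 (0.47), mutant sample 2 (0.54) or mutant sample 3 (0.55). *Gjb6* lay between -0.21 and 0.032 with 1 sample left out and turned to 0.032 without mutant sample 3. *Rela* lay between -2.78 and -2.49. With 1 sample left out, the 5 genes had 1 to 2 calls and the 14 connexin genes 1 to 2. Of the 5 and the 14 genes, 4 and 7 were tested in the reported fit. The calls over all genes in these fits were 857 to 1869 of 12819 to 12875 tested. Without a filter the connexin genes had 3 calls, with *Gjb1* added, against 1731 of 17514 genes. *Gjc1* could be fitted without a filter on low counts (adjusted p = 0.751 in edgeR's test), and its other alternatives were not run. With 1 sample left out, the genotype difference in share lay between -10.1 and -7.04 percentage points for *Gja1*, between 8.95 and 11.6 for *Gjb2* and between -1.18 and -0.83 for *Gjb6*, and the genotype difference in the log2 ratio of *Gjb2* to *Gja1* between 0.55 and 0.74. For *Gja1* and *Gjb2*, the difference in shares over the 5 genes alone or from CPM moved by less than the spread between samples. For *Gjb6* it was -0.68 percentage points from CPM, against -1.03 from FPKM. The SDs of its FPKM share were 0.37 in control and 0.34 in mutant samples. Over all genes, the calls numbered 1678 of 12667 tested in the reported fit. They numbered 857 of 12868 without control sample 2, 999 of 12875 without control sample 3 and 1121 to 1869 with another sample left out. The cause of these differences was not tested.

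Deviations from the group means had correlations of 0.019, 0.048 and -0.046 between same-numbered control and mutant samples. Between differently numbered samples they ran from -0.077 to 0.064. These correlations cannot show whether same-numbered samples belonged together. With a replicate block, *Gjb2* gave 0.91 (adjusted p = 0.00126 from edgeR), *Gjb5* 0.56 (0.025), *Gja1* 0.27 (0.132) and *Gjb6* -0.13 (0.689). In that fit 2 connexin genes passed, and 1419 of 12667 genes passed in all. Leaving out a sample leaves 2 in its genotype, and the depth limits *Gjc1* and the 5 connexin genes with at most 3 counts in each sample.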

Other observations

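Each sample's count and FPKM imply an effective transcript length, here with the mean of the control samples set to 100%. It stood at 99.99% to 100.01% in each sample for *Gja1*, *Gjb2* and *Gjb5*. *Gjb2* and *Gjb5* have 1 annotated transcript each, so their length could not differ between samples, while *Gja1* has 2. For *Gjb6*, with 5 annotated transcripts, the implied length was 97.4% and 98.3% in mutant samples 1 and 2. In mutant sample 3, the sample with the lowest *Gjb6* FPKM, it was 108%. These lengths depend on how RSEM divided the reads among transcripts, and which transcripts were used was not tested.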
